A study of Syringa oblata with 2 samples.

Results

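The *Syringa oblata* (lilac) leaf transcriptome was searched for unigenes of the monoterpene and iridoid pathway, and 91 of 73159 unigenes were found. A unigene was taken when its KEGG annotation held the map of monoterpenoid biosynthesis, or when the name of its best Swiss-Prot match held a term for a step of the route, such as geraniol 8-hydroxylase, iridoid synthase, secologanin synthase, linalool synthase, menthol dehydrogenase or cytochrome P450 76. Of 98 unigenes that met this rule, 7 had a rice protein as their best Nr match and were left out. The members were found by KEGG alone in 39 cases, by name alone in 44 and by both in 8. The rule reads no expression value, but it was set with earlier results of these data known. A unigene is an assembled transcript, not a gene model, and the 91 members lay in 71 Trinity components, the groups of related contigs that the assembler makes. Their lengths ran from 214 to 2983 nt with a median of 1038 nt, against 430 nt over all unigenes, and 21 members were shorter than 500 nt.

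Leaves came from trees grown outdoors under natural light (Z0) or beneath black nets that gave 40% to 50% shading (Z1). Each condition has 2 RNA-seq libraries, named Z0-1, Z0-2, Z1-1 and Z1-2, which the study's methods call biological repeats, and nothing says how the sampled trees were divided between them. All trees were *S. oblata* on 1 campus with neither watering nor fertiliser, and no line, mutant or chemical treatment was involved. Levels are in TPM, a share of transcripts scaled to a fixed total, which corrects for length and is comparable between unigenes of 1 library. The depth of the libraries cannot be read from TPM and is unknown.

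Iridoids are monoterpenes built on a cyclopentane ring fused to a pyran, and they begin with geraniol, which geraniol synthase releases from geranyl diphosphate in the plastid. Geraniol is hydroxylated by a cytochrome P450 of the CYP76B group, oxidised to a dialdehyde by 8-hydroxygeraniol dehydrogenase and cyclised by iridoid synthase, as worked out in *Catharanthus roseus*. An iridoid oxidase, glucosyltransferases and secologanin synthase then act on the way to secoiridoid glucosides, a class of bitter compounds for which lilac, olive and other Oleaceae are known. Other monoterpenes, such as linalool, alpha-terpineol, tricyclene and the menthol series, come from the same precursor through other synthases and reductases.

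The 4 libraries differed in more than light. The 10 unigenes with a carlavirus protein as their best match held 22.8% of the TPM in Z0-1 and 13.9% in Z0-2, but 0.147% in Z1-1 and 0.0505% in Z1-2. The 5648 rice-matched unigenes held between 0.244% and 0.296% in the first 3 libraries and 3.30% in Z1-2. Because virus load went with the condition in all 4 libraries, it cannot be told apart from shading. The leaf label was checked with 3 marker lists. The 4 unigenes of the RuBisCO small chain summed to between 12074 and 13507 TPM, 22 chlorophyll a-b binding proteins to between 7863 and 8118 TPM and 4 of RuBisCO activase to between 5108 and 6622 TPM. The 3 unigenes matched to floral organ identity proteins summed to between 0.53 and 3.16 TPM.

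Taken as a sum, the members held 2859 TPM in Z0-1, 2694 TPM in Z0-2, 5249 TPM in Z1-1 and 5038 TPM in Z1-2. The sum was thus higher in both shaded libraries, and it was carried by few unigenes: 10 members reached 100 TPM in the mean of the 4 libraries, 31 reached 20 TPM and 44 stayed under 5 TPM. All 91 members reached 1 TPM in at least 1 library and were tested. The limma fit on log2(TPM + 1) over all 73159 unigenes, with a call set at an adjusted p (Benjamini-Hochberg) below 0.05 and more than a 2-fold change, gave 6 members higher in Z1 (6.59%, against 3.20% of all unigenes) and 1 lower (1.10%, against 1.80%). The 6 were 2 alpha-terpineol synthases, a neomenthol dehydrogenase, an 8-hydroxygeraniol dehydrogenase, a 7-deoxyloganetic acid glucosyltransferase and a fragment with a helicase match. The 1 lower member was a cytochrome P450 matched to CYP76C1. Each of these 7 calls had an adjusted p between 0.0334 and 0.0458, and 8 further members, every one higher in Z1 by a fold over 2, had an adjusted p between 0.0513 and 0.0639. How many of all unigenes lay in that range was not counted. Over all unigenes, too, more were called higher (2344) than lower (1317). At an unadjusted p under 0.05 and the same fold, 22 members were higher (24.2%, against 16.5% of all unigenes) and 7 were lower (7.69%, against 7.71%), and these are the counts given as before adjustment.

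Ordered by library, 42 members had both Z1 values above both Z0 values (46.2%, against 41.5% of all unigenes), 18 had both below (19.8%, against 18.2%) and 31 overlapped. The median log2 fold change of the members, Z1 minus Z0, was 0.27, and that of all unigenes was 0.45. With 2 libraries per condition an exact test on a single unigene cannot go below p = 0.333, so each call rests on the spread that limma shares across unigenes and measures only the difference between these libraries.

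**Figure D1:**
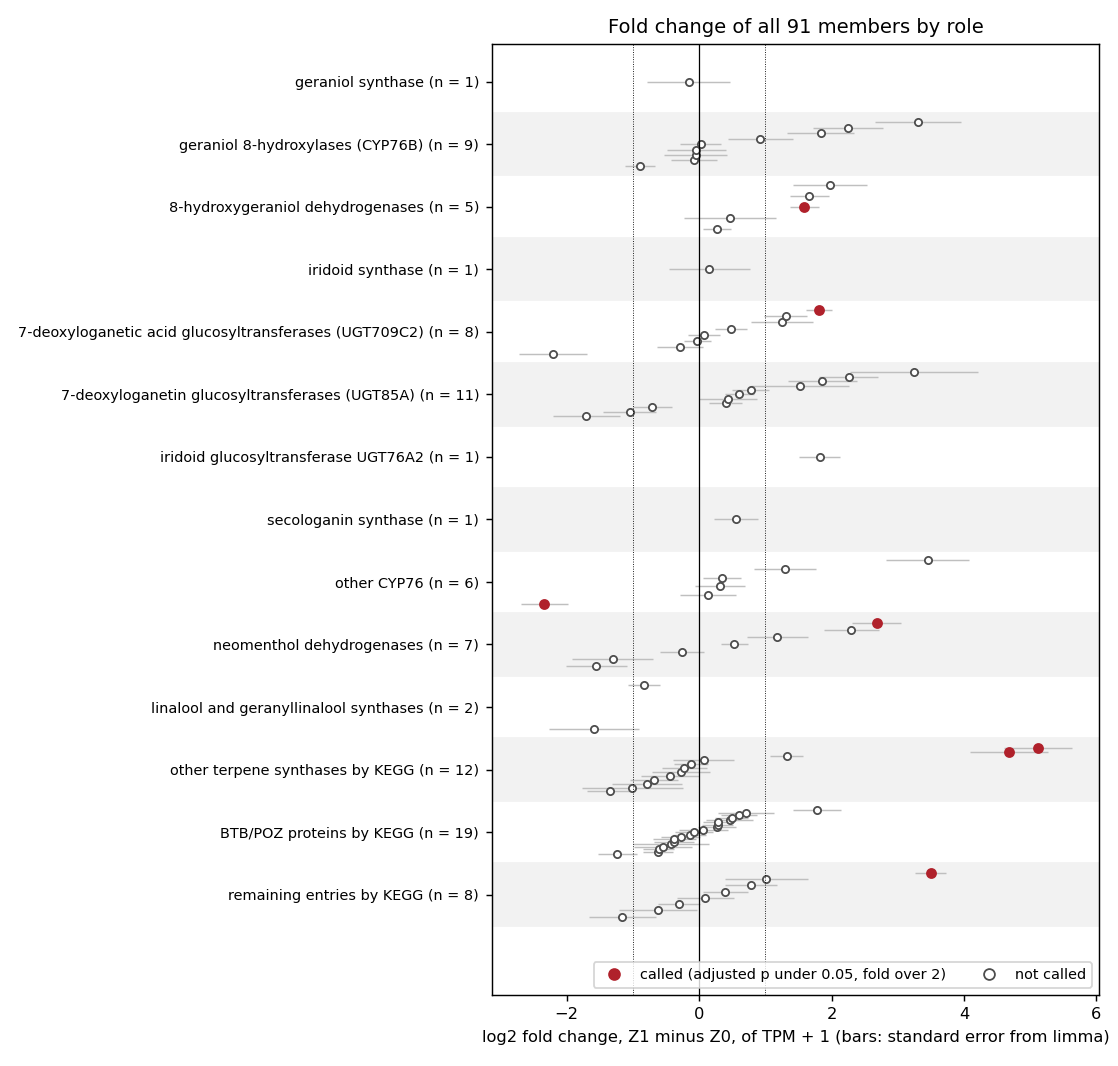
Log2 fold change of TPM + 1, Z1 minus Z0, of all 91 members in 14 role groups, 1 point per unigene with the standard error from limma as a bar. Filled points are the 7 called members, 6 to the right and 1 to the left of 0, and dotted lines mark a fold of 2; the 5 dehydrogenases of 8-hydroxygeraniol lie to the right of 0, although DN37766_c1_g2 turns to -0.04 with the median ratio and -0.18 with TMM, and DN23499_c0_g1 to -0.41 without Z1-1.

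The direction of the weaker changes depended on how the libraries were scaled. With TPM rescaled over the 67501 unigenes that matched neither carlavirus nor rice, the median log2 fold change of these was 0.18. That is -0.27 from the 0.45 of all unigenes as deposited, a larger set. Over all unigenes the median shifted by -0.22 with a median ratio and by -0.33 with TMM. The median of the members moved to 0.01, -0.01 and -0.11 under the same 3 scalings, each time below the median of the unigenes tested. Among unigenes of at least 20 TPM in the mean the order was reversed. There the median as deposited was 0.61 for the 31 members and 0.34 for all unigenes, and with TMM it was 0.16 and -0.11. That level was chosen after the values were seen, and some members reach it only through Z1. The calls among members became 11 higher (against 5.47% of the unigenes tested) and 2 lower (4.73%) after rescaling. They were 5 higher (2.12%) and 1 lower (2.48%) with the median ratio, and 4 higher (1.81%) and 2 lower (3.09%) with TMM. Over all unigenes the calls turned from 2344 higher and 1317 lower to 1327 higher and 2264 lower with TMM. The log2 fold changes of the 7 called members kept their signs under all 3 scalings, which is no test, as a call required a change larger than these shifts. The call of DN35518_c0_g3 was lost with the median ratio and with TMM, and that of DN35252_c1_g1 with TMM. Leaving out Z0-1, Z0-2 or Z1-2 left 0 members called in either direction in the limma fit, where 0 of all unigenes were called as well. The median log2 fold change of the members in these fits was 0.18, 0.29 and 0.16, against 0.41, 0.49 and 0.23 over all unigenes. Without Z1-1 it was 0.36, against 0.4. Of the 7 calls, only those of the alpha-terpineol synthase DN37804_c1_g1 and the fragment DN32313_c0_g2 were kept without Z1-1.

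**Figure D2:**
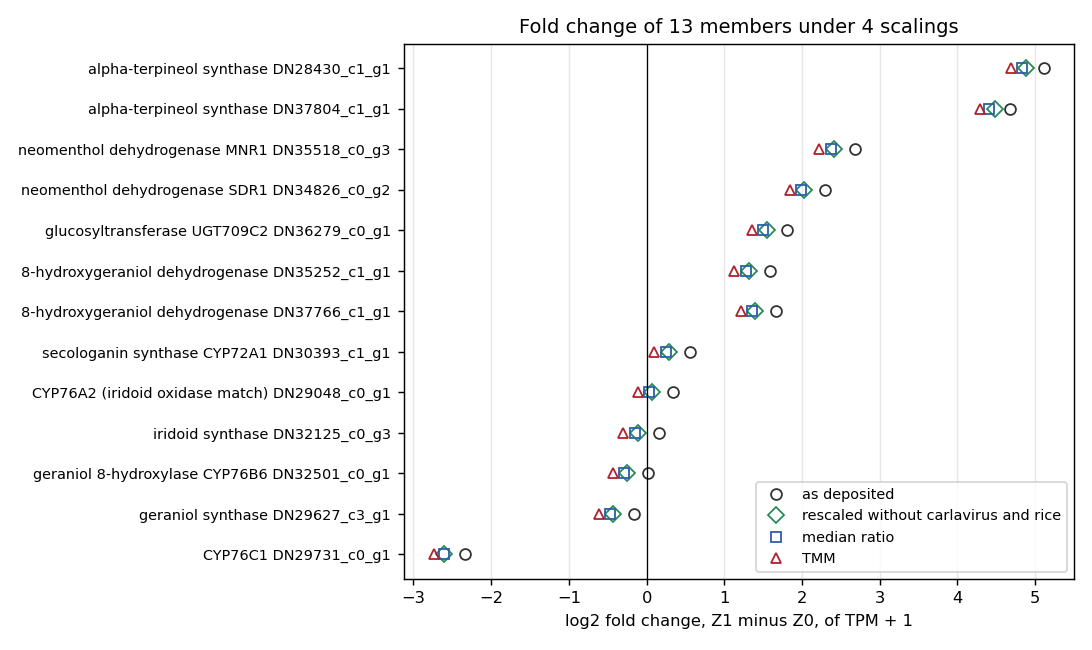
Log2 fold change of TPM + 1, Z1 minus Z0, of 13 members under the 4 scalings named in the key, 1 row per unigene. For the alpha-terpineol synthase DN28430_c1_g1 the value runs from 5.12 as deposited to 4.69 with TMM, and for the iridoid synthase from 0.16 to -0.30, across 0.

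Geraniol synthase, the entry to the route, was represented by 1 long unigene, DN29627_c3_g1 (2983 nt, GES). It stood at 155 and 84.6 TPM in Z0-1 and Z0-2 and at 58.6 and 179 TPM in Z1-1 and Z1-2. The shaded libraries thus held both the lowest and the highest value, and the log2 fold change of -0.16 (SE 0.63) was far inside the spread between repeats (limma, adjusted p = 0.866). Its level lay at the 98.9 percentile of all unigenes, so the transcript was abundant in these leaves.

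Geraniol 8-hydroxylase adds a hydroxyl group to geraniol and so makes a diol, and 9 unigenes carried this name as CYP76B6 or CYP76B10. None was called, against 3.20% of all unigenes higher and 1.80% lower. Before adjustment 3 were higher (33.3%, against 16.5% of all unigenes) and 0 lower (against 7.71%). The median log2 fold change of the 9 was 0.02, against 0.45 over all unigenes. The most abundant, DN32501_c0_g1, stood at 231 and 205 TPM in Z0 and at 171 and 286 TPM in Z1, a log2 fold change of 0.02 (SE 0.31, limma adjusted p = 0.959). The next, DN33216_c1_g3, stood at 133 and 128 TPM in Z0 and at 90.97 and 168 TPM in Z1. In both, the Z1 repeats lay on either side of the Z0 repeats. Some shorter or less abundant copies had both shaded values above both values in natural light. DN38106_c1_g4 went from 1.13 and 1.45 TPM to 41.7 and 10.9 TPM, a log2 fold change of 3.30 (SE 0.65). It missed the threshold at a limma adjusted p of 0.0606. Its best Nr match is a ferruginol synthase-like protein, as is that of DN31644_c0_g4, a more abundant unigene of the 9. DN34791_c0_g4, a fragment of 357 nt, stood at 10.3 and 17.6 TPM in Z0 and at 106 and 43.0 TPM in Z1 (limma adjusted p = 0.0784). The opposite order was seen in DN35260_c0_g2, with 11.2 and 13.2 TPM in Z0 against 5.86 and 6.32 TPM in Z1, a copy named after its values were seen. Summed over the 9, the level was 483 and 558 TPM in Z0 against 641 and 669 TPM in Z1.

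The enzyme 8-hydroxygeraniol dehydrogenase (10HGO) turns the diol into the dialdehyde that iridoid synthase cyclises. The unigenes with this Swiss-Prot name had the highest median among the groups of several unigenes named for the iridoid route. All 5 had a positive log2 fold change in the deposited TPM, with a median of 1.59, and 1 was called. The sign of DN37766_c1_g2 turned with the median ratio (-0.04) and with TMM (-0.18), and that of DN23499_c0_g1 turned without Z1-1 (-0.41). The called unigene, DN35252_c1_g1 (2405 nt), stood at 165 and 195 TPM in Z0-1 and Z0-2 and at 595 and 494 TPM in Z1-1 and Z1-2. Its best Nr match is a geraniol dehydrogenase 1-like protein, while the others of the group match 8-hydroxygeraniol dehydrogenase there too. Both shaded values were well above both others, and the log2 fold change was 1.59 (SE 0.22, limma adjusted p = 0.0417). The second, DN37766_c1_g1, stood at 58.7 and 71.9 TPM in Z0 and at 260 and 167 TPM in Z1, with a similar log2 fold change of 1.67 (SE 0.30) and an adjusted p of 0.0532 that missed the threshold. DN37766_c1_g3 stood at 10.5 and 25.3 TPM in Z0 and at 97.7 and 46.5 TPM in Z1 (limma adjusted p = 0.106). The last 2 differed less, among them the 327 nt fragment DN37766_c1_g2 with 30.7 and 26.8 TPM against 32.3 and 37.6 TPM. The 5 summed to 266 and 320 TPM in Z0, compared with 989 and 745 TPM in Z1. With TMM the log2 fold change of DN35252_c1_g1 was 1.13 and its call was lost.

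Iridoid synthase, the reductase that closes the iridoid ring, had 1 unigene, DN32125_c0_g3. It stood at 87.9 and 44.0 TPM in Z0-1 and Z0-2 and at 41.5 and 116 TPM in Z1-1 and Z1-2. As with geraniol synthase, the lowest and the highest value were both from shaded leaves, and the log2 fold change was 0.16 (SE 0.61, limma adjusted p = 0.863). The next step is an oxidation by a cytochrome P450. The unigene DN29048_c0_g1 carries the Swiss-Prot name CYP76A2, while its best Nr match is a putative iridoid oxidase of olive. It was the second most abundant member, with 433 and 309 TPM in Z0 against 405 and 535 TPM in Z1, and the groups overlapped (log2 fold change 0.35, SE 0.28, limma adjusted p = 0.447).

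**Figure D3:**
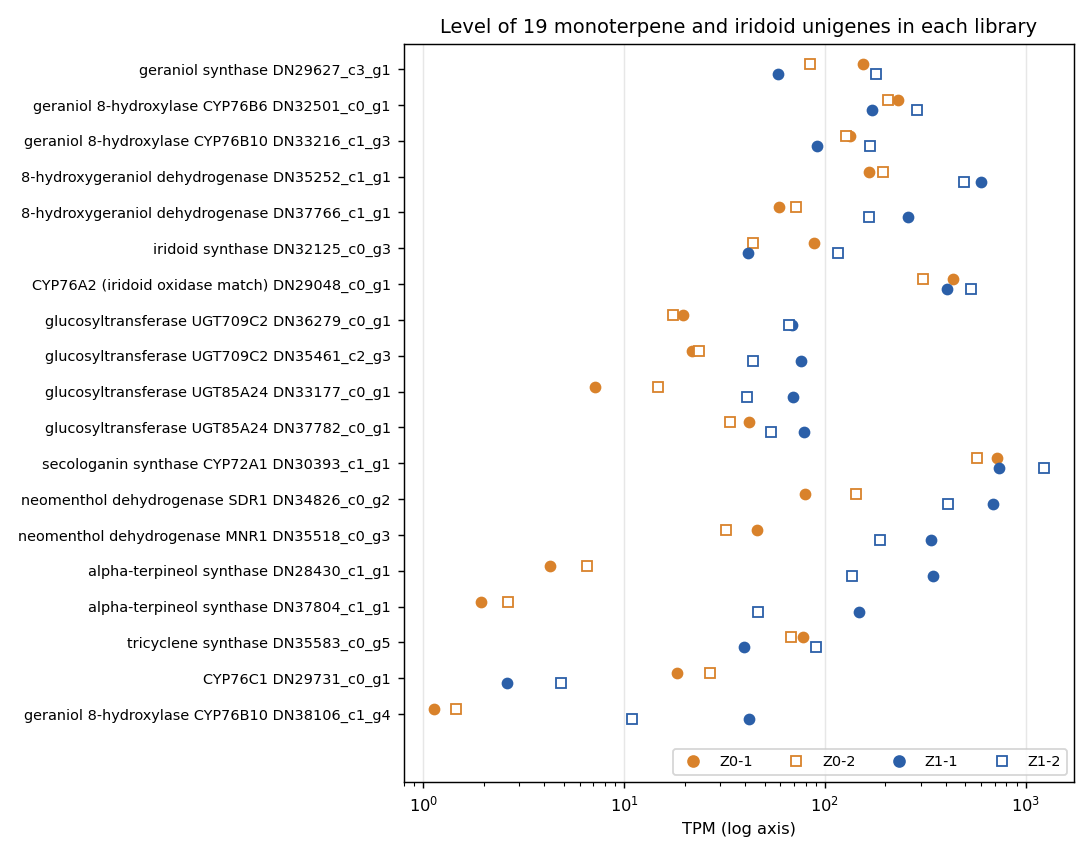
TPM of 19 members in each of the 4 libraries on a log axis, with Z0 in orange and Z1 in blue, and filled circles for repeat 1 and open squares for repeat 2. The 8-hydroxygeraniol dehydrogenase DN35252_c1_g1 lies at 165 and 195 TPM in Z0 and at 595 and 494 TPM in Z1, while in geraniol synthase and iridoid synthase the Z1 circle is the lowest and the Z1 square the highest of 4 points.

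Glucosyltransferases place a sugar on the iridoid skeleton, and 20 members carried such a name. The 8 unigenes named UGT709C2, the 7-deoxyloganetic acid glucosyltransferase of *C. roseus*, held 1 call, higher in Z1 (12.5%, against 3.20% of all unigenes). In DN36279_c0_g1 (2061 nt) the level was 19.5 and 17.5 TPM in Z0 against 68.4 and 66.2 TPM in Z1, so that the repeats of each condition lay close together and the conditions far apart. Its log2 fold change was 1.81 (SE 0.20, limma adjusted p = 0.0358). DN35461_c2_g3 had the same order, with 21.8 and 23.6 TPM against 75.6 and 43.9 TPM, and an adjusted p of 0.0836. DN28760_c0_g4, whose mean level was close to that of the called copy, stood at 42.3 and 42.6 TPM in Z0 and at 38.2 and 45.1 TPM in Z1 (log2 fold change -0.03, SE 0.20). The fragment DN32883_c0_g3 of 254 nt was listed at 6.08 and 2.00 TPM in Z0 and at 0 in both shaded libraries. The copies of this enzyme therefore did not share a direction.

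The 11 unigenes named UGT85A23 or UGT85A24, glucosyltransferases of 7-deoxyloganetin known from *C. roseus* and gardenia, held 0 limma calls. Over all unigenes 3.20% were called higher and 1.80% lower. Before adjustment 3 of the 11 were higher (27.3%, against 16.5% of all unigenes) and 2 lower (18.2%, against 7.71%). None of the 11 overlapped between conditions: 8 were higher in both shaded libraries (72.7%, against 41.5% of all unigenes) and 3 lower (27.3%, against 18.2%). The highest by mean level, DN37782_c0_g1, stood at 42.0 and 33.7 TPM in Z0 and at 79.0 and 53.9 TPM in Z1 (limma adjusted p = 0.156). DN33177_c0_g1 stood at 7.17 and 14.7 TPM in Z0 and at 69.4 and 40.8 TPM in Z1, a log2 fold change of 2.26 (SE 0.44) with an adjusted p of 0.0602. A unigene of the same component, DN33177_c0_g2, ran the other way, from 5.21 and 11.4 TPM to 2.71 and 0.96 TPM (limma adjusted p = 0.114). DN36281_c0_g2 showed how wide repeats could lie, with 6.33 and 0.59 TPM in Z0 against 58.9 and 16.5 TPM in Z1. The single unigene named UGT76A2, DN26468_c0_g1, after an iridoid glucosyltransferase of *C. roseus*, was low throughout, at 3.05 and 1.57 TPM in Z0 against 10.2 and 10.6 TPM in Z1, with an adjusted p of 0.0513.

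Secologanin synthase (CYP72A1), the P450 that opens the ring of loganin, was the most abundant member. Its unigene DN30393_c1_g1 stood at 721 and 574 TPM in Z0-1 and Z0-2 and at 733 and 1232 TPM in Z1-1 and Z1-2, at the 99.9 percentile of all unigenes. It alone held 25.2%, 21.3%, 13.96% and 24.5% of the members' TPM, in the order Z0-1, Z0-2, Z1-1, Z1-2. Both shaded values were above both others, but Z1-1 exceeded Z0-1 by little, and the log2 fold change of 0.56 (SE 0.33) was not called (limma adjusted p = 0.331). No member was named 7-deoxyloganic acid hydroxylase or loganic acid methyltransferase, the steps between the glucosyltransferases and secologanin synthase, and these were not analysed here. Over the 37 members that carry the name of an iridoid step, 2 were called higher (5.41%, against 3.20% of all unigenes) and 0 lower (against 1.80%). Before adjustment 13 were higher (35.1%, against 16.5%) and 3 lower (8.11%, against 7.71%), and the median log2 fold change was 0.48, against 0.45 over all unigenes.

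The 2 shaded repeats differed from each other in a way that ran through several of these steps. Geraniol synthase, iridoid synthase, the CYP76A2 with the iridoid oxidase match, secologanin synthase and 3 plastid terpene synthase fragments were all higher in Z1-2 than in Z1-1. The log2 ratio of Z1-2 to Z1-1 in these 7 ran from 0.40 to 1.59 with a median of 1.21, and the ratio of Z0-2 to Z0-1 had a median of -0.33. In linear terms geraniol synthase was 3.05-fold and iridoid synthase 2.79-fold higher in Z1-2 than in Z1-1. The 3 plastid terpene synthase fragments all lie in component DN35583_c0 and summed to 64.7 TPM in Z1-1 and 162 TPM in Z1-2. Over all 8 unigenes of that component the sums were 276 and 294 TPM, so the repeats differed little there. Of all unigenes of at least 20 TPM, 39.9% were higher in Z1-2 than in Z1-1, and their median ratio was -0.11, with 90% of them between -0.99 and 0.77. The members that were higher in both shaded libraries lay on the other side: of the 20 at this level, 2 were higher in Z1-2 than in Z1-1, and their median ratio was -0.69. Of the 11 that overlapped between conditions, 8 were higher in Z1-2. Z1-2 is also the library with the raised share of rice-matched unigenes, and the part of that share in these differences was not tested. The 20 TPM level is cut on the mean of all 4 libraries, so some members reach it only through Z1. The level and the 7 unigenes were chosen after the values were seen, and the repeats allow no test of this pattern.

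**Figure D4:**
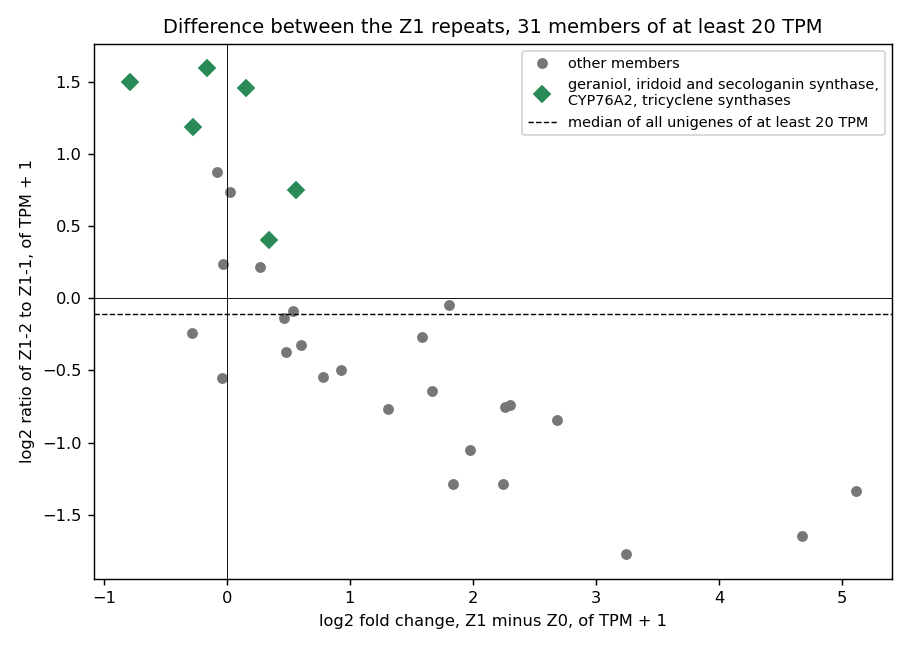
Log2 ratio of Z1-2 to Z1-1 against the log2 fold change, Z1 minus Z0, both of TPM + 1, for the 31 members of at least 20 TPM; both axes use the Z1 libraries. Diamonds mark geraniol synthase, iridoid synthase, secologanin synthase, the CYP76A2 and 2 tricyclene synthases, all between 0.40 and 1.59 on the vertical axis, and the dashed line at -0.11 is the median of all unigenes of that level.

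Outside the iridoid route, 7 unigenes were named (+)-neomenthol dehydrogenase, short-chain reductases that interconvert menthone and neomenthol in peppermint and pepper. DN34826_c0_g2 and DN35518_c0_g3 were among the most abundant members, but the median of the 7 mean levels was 1.87 TPM. DN34826_c0_g2 (SDR1) stood at 79.9 and 143 TPM in Z0 and at 686 and 409 TPM in Z1, with a log2 fold change of 2.30 (SE 0.41) and an adjusted p of 0.0539. DN35518_c0_g3 (MNR1) stood at 46.0 and 32.2 TPM in Z0 and at 338 and 188 TPM in Z1, a log2 fold change of 2.68 (SE 0.37) that was called (limma adjusted p = 0.0419). In each of these unigenes both shaded values were above both others. The call of DN35518_c0_g3 was lost with TMM and with the median ratio, where the log2 fold changes were 2.23 and 2.37. DN32735_c0_g2 (SDR1) stood at 43.3 and 36.6 TPM in Z0 and at 59.9 and 56.3 TPM in Z1 (limma adjusted p = 0.174), and the low DN34385_c6_g3 ran the other way, from 1.76 and 4.96 TPM to 0.37 and 0.40 TPM. DN32735_c0_g3 (MNR1) overlapped between conditions at 0.87 to 1.88 TPM. Of the 7 unigenes of this name, 4 were higher in both shaded libraries (57.1%, against 41.5% of all unigenes) and 2 lower (28.6%, against 18.2%). Summed over the 7, the level was 174 and 221 TPM in Z0 against 1088 and 656 TPM in Z1. Reductases of this family act on varied substrates, and the name gives only the best match.

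The largest fold changes of all members were those of 2 unigenes matched to the (-)-alpha-terpineol synthase of grapevine, an enzyme that makes a cyclic monoterpene alcohol. DN37804_c1_g1 (2173 nt) stood at 1.94 and 2.65 TPM in Z0-1 and Z0-2 and at 147 and 46.2 TPM in Z1-1 and Z1-2, a log2 fold change of 4.67 (SE 0.59, limma adjusted p = 0.0390). DN28430_c1_g1, a fragment of 360 nt, stood at 4.25 and 6.54 TPM in Z0 and at 345.5 and 136 TPM in Z1, a log2 fold change of 5.12 (SE 0.51, limma adjusted p = 0.0340). Both were low in natural light and were higher in Z1-1 than in Z1-2. The ratio of the mean TPM in Z1 to that in Z0 was 42.1 for DN37804_c1_g1 and 44.6 for DN28430_c1_g1. The 2 lie in different Trinity components and share their best Swiss-Prot match, and how alike their sequences are was not tested. In Nr, DN37804_c1_g1 matches a hypothetical protein of grapevine. Other members match a grapevine (-)-alpha-terpineol synthase in Nr but another enzyme in Swiss-Prot, and they ran the other way. DN28430_c1_g4, DN34746_c1_g6 and DN33579_c1_g3 had low levels and log2 fold changes of -0.44, -0.68 and -1.01, and none was called.

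The other terpene synthases held no call. Of 12 unigenes of this kind found through KEGG, the 2 named above were called higher (16.7%, against 3.20% of all unigenes). Before adjustment 3 were higher (25.0%, against 16.5%) and 1 lower (8.33%, against 7.71%). The median log2 fold change of the 12 was -0.25, against 0.45 over all unigenes. The component DN35583_c0 held 3 fragments whose best Nr match is a plastid terpene synthase of *Osmanthus fragrans*. Among them, DN35583_c0_g5, named for the tricyclene synthase Oc15 of snapdragon, stood at 77.5 and 67.5 TPM in Z0 and at 39.3 and 90.5 TPM in Z1 (limma adjusted p = 0.670). DN35583_c0_g7, named for tricyclene synthase 0e23, stood at 51.5 and 58.2 TPM in Z0 and at 18.3 and 53.4 TPM in Z1 (adjusted p = 0.392 from limma). The values of both conditions overlapped in each. DN35242_c1_g2, matched to a bergamotene synthase in Swiss-Prot and to monoterpene synthases of *Picrorhiza* in Nr, was low, at 2.30 and 2.91 TPM in Z0 against 7.2 and 8.81 TPM in Z1 (adjusted p = 0.0589). S-linalool synthase (DN36221_c0_g3), which makes an acyclic floral scent alcohol, stood at 5.91 and 4.92 TPM in Z0 and at 2.57 and 2.59 TPM in Z1 (limma adjusted p = 0.110). The rule also took up a (E,E)-geranyllinalool synthase, DN11934_c0_g1, an enzyme of diterpene metabolism, at 0.81 and 5.17 TPM in Z0 and at 0 and 0.23 TPM in Z1. Both linalool-type synthases had both shaded values below both others, an order seen in 18.2% of all unigenes. Each was low, and neither was called.

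The 1 member called lower was DN29731_c0_g1, named for CYP76C1, a P450 that oxidises linalool in *Arabidopsis*, with a geraniol 8-hydroxylase of sesame as its best Nr match. It stood at 18.4 and 26.7 TPM in Z0-1 and Z0-2 and at 2.60 and 4.85 TPM in Z1-1 and Z1-2. Every shaded value was well below every value in natural light, and the log2 fold change was -2.34 (SE 0.36, limma adjusted p = 0.0458), a mean level 6.06-fold higher in Z0. CYP76AD1, known from betalain synthesis in beet, gave its name to DN38106_c1_g2, a fragment of 340 nt whose Nr match is a ferruginol synthase. It stood at 0.65 and 0.91 TPM in Z0 and at 34.8 and 9.55 TPM in Z1 (log2 fold change 3.45, SE 0.63, adjusted p = 0.0550), and it lay in 1 component with the geraniol 8-hydroxylase unigenes DN38106_c1_g3 and DN38106_c1_g4. DN38106_c1_g3 stood at 14.3 and 36.01 TPM in Z0 and at 52.7 and 37.0 TPM in Z1. The other unigene named CYP76AD1, DN33627_c0_g3, was at most 0.58 TPM in Z0 and at 1.38 and 3.01 TPM in Z1. Summed over the component DN38106_c1 the log2 fold change was 0.87 with an adjusted p of 0.343.

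Not every member is an enzyme of the pathway by its name. KEGG assigned 19 proteins with a BTB/POZ domain, relatives of the phototropin partner NPH3, to the orthologue group of neomenthol dehydrogenase (K15095). They held 0 limma calls and had a median log2 fold change of -0.07, against 0.45 over all unigenes. Before adjustment 1 was higher (5.26%, against 16.5% of all unigenes) and 1 lower (5.26%, against 7.71%). The most abundant of them, RPT2 (DN34740_c0_g1), a signalling protein of the phototropic response, stood at 25.9 and 48.8 TPM in Z0 and at 51.9 and 47.2 TPM in Z1 (limma adjusted p = 0.427). A further 8 members found by KEGG alone carried no name of a terpene enzyme. Among these was the called fragment DN32313_c0_g2 (946 nt), whose best Nr match is a PIF1 DNA helicase of beet, at 0.29 and 0.33 TPM in Z0 against 14.1 and 13.4 TPM in Z1 (log2 fold change 3.49, SE 0.23, limma adjusted p = 0.0334). Without the BTB/POZ proteins and these 8, 64 members were left, of which 5 were called higher (7.81%, against 3.20% of all unigenes) and 1 lower (1.56%, against 1.80%).

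Close copies of an enzyme did not always move together, and the unigene is a small unit for that comparison. When TPM were summed over each Trinity component, 0 of the 71 components with a member were called in limma. Of all 30459 components, 4 were called higher and 1 lower (0.0131% and 0.00328%). At an unadjusted p, 17 of the 71 were higher and 2 lower, and no share over all components was taken. The leading ones lay just past the threshold, with adjusted p values of 0.055 for the components of the called UGT709C2, the called 8-hydroxygeraniol dehydrogenase and the alpha-terpineol synthase DN37804_c1_g1. The component of DN28430_c1_g1 summed to 18.5 and 24.3 TPM in Z0, compared with 350.4 and 141 TPM in Z1, a log2 fold change of 3.33 (adjusted p = 0.057). In the component of DN37766_c1_g1 all 3 unigenes were 8-hydroxygeraniol dehydrogenases, and their summed level had a log2 fold change of 1.48 (limma adjusted p = 0.074). The component of CYP76C1 held 6 unigenes, and its log2 fold change of -0.83 was smaller in size than that of the called unigene.

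Steps beside the members were looked at through 3 further lists taken by name from the same table. The first 2 concern precursor supply. The 21 unigenes of the plastid methylerythritol phosphate route, which makes the units of monoterpenes, held 0 limma calls and a median log2 fold change of 0.02. Before adjustment 2 of the 21 were higher (9.52%, against 16.5% of all unigenes) and 2 lower (9.52%, against 7.71%). The 21 summed to 1157 and 1375 TPM in Z0, compared with 1132 and 1358 TPM in Z1, so that the conditions overlapped. Of 13 isopentenyl diphosphate isomerases and geranyl or geranylgeranyl diphosphate synthases, 1 was called higher (7.69%, against 3.20% of all unigenes). This unigene, GGPS1 (DN33998_c0_g4), stood at 43.6 and 35.7 TPM in Z0 and at 106 and 132 TPM in Z1 (log2 fold change 1.56, SE 0.23, limma adjusted p = 0.045). Of 12 strictosidine synthase-like proteins and raucaffricine glucosidases, relatives of enzymes that use iridoids in alkaloid plants, 0 were called by limma. Before adjustment 4 were higher (33.3%, against 16.5% of all unigenes) and 0 lower (against 7.71%). The most changed, SSL6 (DN34458_c0_g1), stood at 1.58 and 5.13 TPM in Z0 and at 44.7 and 25.4 TPM in Z1 (log2 fold change 3.13, adjusted p = 0.051). In whole leaves, fewer cells of a type and less RNA per cell cannot be told apart for any of these unigenes.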

How the data were processed

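The authors deposited a table of TPM, which they estimated with Salmon on a Trinity assembly of 73159 unigenes, with the length and the annotation of each unigene. The submitters' processing notes also name cutadapt, FastQC and edgeR, without a version that could be used here. The sample labels list 1 sample per condition and genomic DNA as the molecule, while the columns hold 2 repeats per condition and the extraction text describes RNA. All 4 columns were used, and a column was given to its condition by its name. TPM keep no counts, so the depth and the precision it gives are unknown, and reads shared between close copies could not be told apart.

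Values were taken as log2(TPM + 1), with a filter of at least 1 TPM in 1 library that all unigenes passed. Fold changes are on that scale, which understates changes of low unigenes. limma 3.58.1 in R 4.3.3 (data.table version 1.17.8) was fitted over all unigenes with a trended prior and no covariate, and p values were Benjamini-Hochberg adjusted over all of them; the study's own call used edgeR, which was not run because the deposited values are not counts. The fit was run first on simulated data that carried known changes. Tables and plots were made with Python 3.11.15, pandas 2.3.3 and matplotlib 3.10.9.

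The choice of named unigenes followed a rule: every called member, the up to 5 members of highest mean TPM in each role, and the 10 of largest fold change with no overlap and at least 5 TPM in the higher condition. Other unigenes (DN35260_c0_g2, DN32883_c0_g3, DN33177_c0_g2, DN26468_c0_g1, DN35242_c1_g2, DN28430_c1_g4, DN34746_c1_g6, DN33579_c1_g3 and those of the further lists) were named once values had been seen. The members, lists and tests were chosen with earlier results of these data known, and the 14 role groups were drawn up after the members' annotation names had been read. Alternatives were pseudocounts of 0.1 and 5, no filter, a filter at 5 TPM, scaling by median ratio, by an unweighted TMM (trimming 30% of M and 5% of A) or over unigenes matching neither carlavirus nor rice, the repeat number as a block, each library left out, an unadjusted p and sums per component. A library left out leaves 1 in its condition, which is then assumed to vary like the other condition. A block with the Z1 repeat numbers crossed was added after seeing the data. No sequence of the unigenes was used, so none is printed.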

Additional observations from a re-analysis of the deposited data

How the results depend on the processing

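The counts of called members, 6 higher and 1 lower, moved with most settings. Members called higher numbered 2 with a pseudocount of 0.1 TPM (2.20%, against 0.484% of all unigenes), 0 with 5 TPM (0 of all unigenes), 18 with a filter at 5 TPM (33.3%, against 12.7%), 11 after rescaling without carlavirus and rice, 22 at an unadjusted p and 0 of the summed components. Members called lower numbered 0, 0, 2, 2, 7 and 0 under the same settings and 2 with TMM. The filter at 5 TPM, met by that level in any 1 library, left 31035 unigenes to test, 54 of them members. Some members passed it only through Z1, such as DN32313_c0_g2, and others only through Z0, such as DN36221_c0_g3. The shares called under this filter are therefore not independent of the change itself and are no further support. With a pseudocount of 5 TPM, limma gave 17 higher and 1 lower at an unadjusted p, and no share over all unigenes was taken there. Over the 4 fits that each left out a library, the median log2 fold change of the members ran from 0.16 to 0.36, against 0.23 to 0.49 over all unigenes. With no filter nothing moved. The median log2 fold change of the members changed sign with the median ratio (-0.01) and with TMM (-0.11).

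With the repeat number as a block, 10 of the 91 members were called higher (against 3.43% of all unigenes) and 1 lower (1.10%, against 2.03%), all 7 reported calls among them. The numbers are not shown to pair the libraries, as the difference between repeats 1 and 2 correlated at r = -0.19 between the conditions over 18357 unigenes, which are not independent. A block with crossed numbers, added after seeing the data, gave 15 members higher and 2 lower, and 2614 and 1116 of all unigenes.

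Of the uncalled unigenes named here, some changed sign. With TMM the log2 fold change was -0.43 for DN32501_c0_g1, -0.30 for iridoid synthase, -0.18 for DN37766_c1_g2, -0.11 for the CYP76A2 DN29048_c0_g1 and -0.08 for DN32427_c1_g1, a second unigene named CYP76A2. With the median ratio it was -0.29, -0.15, -0.04 and -0.01 for DN32501_c0_g1, iridoid synthase, DN37766_c1_g2 and DN32427_c1_g1, and after rescaling -0.25 and -0.11 for the first pair. Over the fits without 1 library it ran from -0.95 to 0.64 for geraniol synthase, from -0.57 to 0.89 for iridoid synthase, from -0.34 to 0.39 for DN32501_c0_g1, from -0.51 to 0.36 for DN33216_c1_g3, from -0.60 to 0.51 for DN31644_c0_g4, from -0.15 to 0.09 for DN28760_c0_g4, from -0.41 to 1.35 for DN23499_c0_g1, from -0.17 to 0.44 for DN32427_c1_g1 and from -0.86 to 0.32 for DN35583_c0_g5. The cause was not tested. The depth behind the 44 members under 5 TPM is unknown, and 0 of them were called in limma, with 4 higher and 5 lower at an unadjusted p. No share over all unigenes of that level was taken.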

Other observations

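The 7 unigenes that met the rule but had a rice protein as their best Nr match were nearly confined to 1 library. They stood at 2.24 to 7.57 TPM in Z1-2 and at 0.15 TPM or less in Z0-1, Z0-2 and Z1-1. Among them were fragments named for secologanin synthase, isopiperitenone reductase and linalool synthase. They entered no comparison between the conditions.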
